A study of Caenorhabditis elegans with 6 samples.

Results

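Basement membranes are thin sheets of extracellular matrix that lie under epithelia and around muscle. A laminin network and a type IV collagen network form the sheet, and nidogen, perlecan, type XVIII collagen and SPARC join them or bind to them. In the nematode Caenorhabditis elegans the type IV collagen chains are made largely by body-wall muscle and secreted onto other tissues. Perlecan lies in the sheet between body-wall muscle and hypodermis, where it anchors the contractile filaments. The 10 genes described here encode these proteins. They are the 2 type IV collagen genes emb-9 and let-2, the perlecan gene unc-52, the laminin genes lam-1, lam-2, lam-3 and epi-1, the nidogen gene nid-1, the type XVIII collagen gene cle-1 and the SPARC gene ost-1. Members were the probe sets whose single gene symbol in the platform annotation is one of these names, which gave 18 of the 22548 probe sets tested and 10 of the 17118 genes they name.

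Messenger RNA was measured in whole worms of strain N2, the wild type, on 6 Affymetrix arrays, 3 per group and 1 for each RNA sample. Age-matched larvae reared at 20 °C were put at the L3 stage into dishes of 50% K-medium, a dilute salt solution, with about 2000 worms to a dish. The Au-NP group received citrate-coated gold nanoparticles of 4 nm at 5.9 mg/L, which the labels give as the LC10, for 12 h. Recovery in medium without particles took 12 h more, and worms were harvested for RNA at 24 h. The second group carries the label control and nothing that describes what its dishes held. The comparison asks which transcripts were higher or lower in the exposed worms once they had recovered.

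The array medians lay between 7.03 and 7.09 on the log2 scale, and 3 arrays per group bound how precise any value can be. Au-NP replicate 3 stood apart from its group. Its Pearson's r to the other Au-NP arrays, across probe sets, was 0.988 and 0.990, where the other pairs within a group had 0.996 or 0.997 and pairs of different groups 0.985 to 0.990. Results that rest on this array are given with and without it. Separate cultures are not mentioned in the labels, and the p-values therefore reflect only how much these arrays varied. Directions are those of the array labels. As remembered here, and not checked, the published account of this experiment gives abu genes as higher after gold, whereas abu-11 had a log2 difference of -1.45 on these arrays, and nothing in the files settles which is right.

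By their counted probe sets, transcripts of both type IV collagen genes and of perlecan fell to less than 0.5 of their control level in the arrays labelled Au-NP. They did so on all 3 Au-NP arrays. The 4 laminin genes had small or scattered differences, and 0 of them passed the test. Nidogen, type XVIII collagen and SPARC had negative values of intermediate size, and 0 of their 5 counted probe sets passed. By limma with Benjamini-Hochberg adjustment over all probe sets at a threshold of 0.05, 6 of the 18 probe sets were lower and 0 higher, where 5.68% of all tested probe sets were lower and 6.24% higher. These 6 belonged to 3 of the 10 genes, beside 4.94% of all genes that were lower by at least 1 probe set and 7.49% that were higher. The 3 Au-NP values lay wholly below the 3 control values for 7 of the 18 probe sets and wholly above for 0, beside 11.6% and 19.2% of all probe sets. Probe sets of 1 gene share a transcript and are not independent of each other. Probe sets above the median level, among which all 6 lay, were lower in 10.5% and higher in 13.9% of cases. The median difference was -0.36 over the 18 probe sets and 0.03 over all tested ones. In RNA of whole worms, fewer cells of a type and less RNA per cell cannot be told apart.

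**Figure D1:**
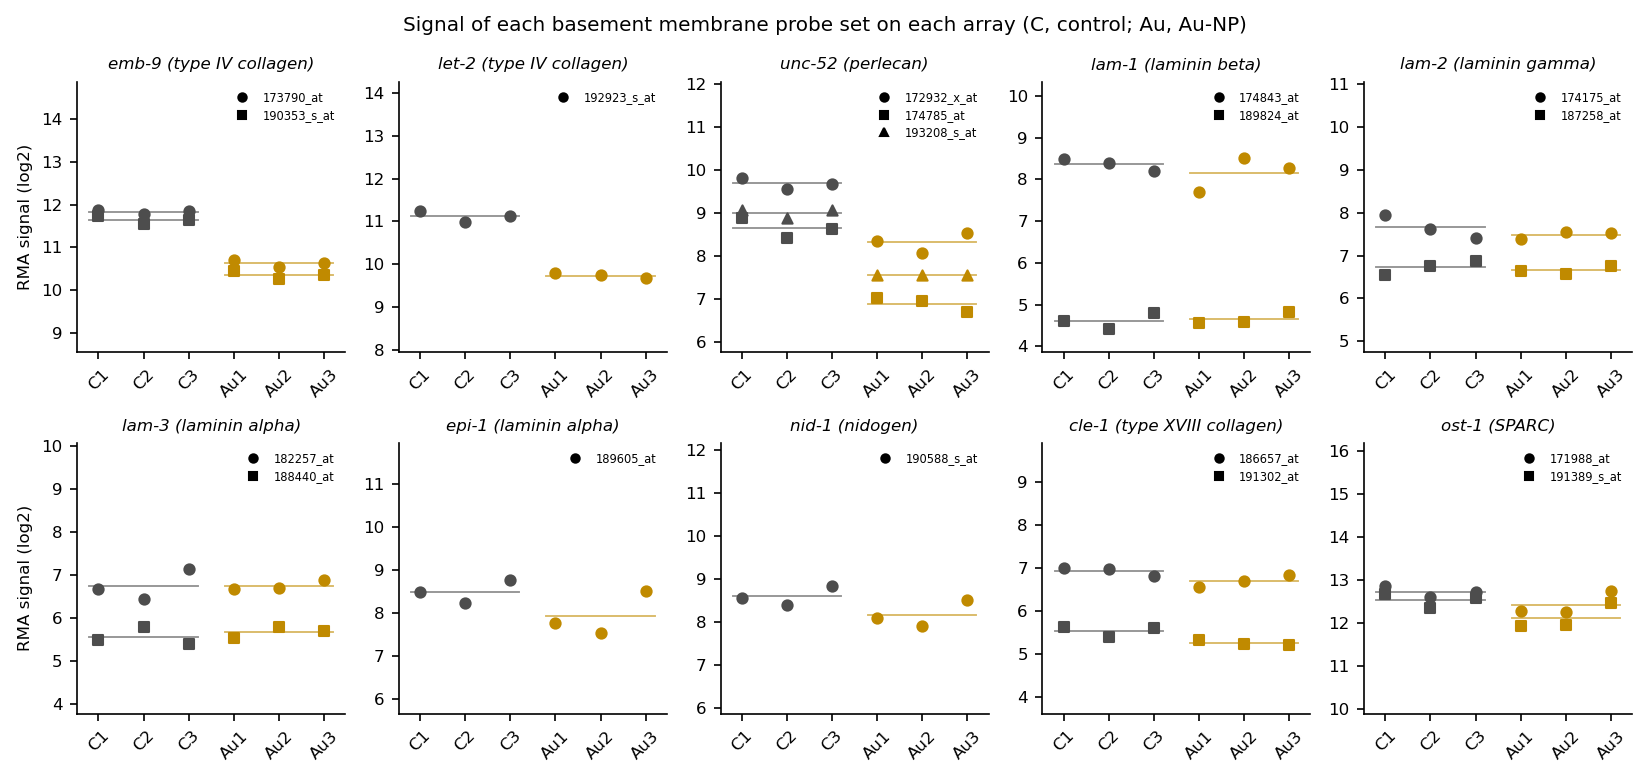
Signal of each of the 18 probe sets on each array, in log2 units after RMA (y axis), with 1 panel per gene, 1 symbol shape per probe set, grey for the 3 control arrays (C), gold for the 3 Au-NP arrays (Au) and lines for the mean of each group. The groups are separated by more than 1 log2 unit in the panels of emb-9, let-2 and unc-52.

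The gene emb-9 encodes the alpha 1 chain of type IV collagen and let-2 the alpha 2 chain, which assemble together into the collagen molecule. The emb-9 probe set 173790_at read 11.86, 11.77 and 11.85 (log2) in control replicates 1 to 3 and 10.70, 10.56 and 10.64 in Au-NP replicates 1 to 3. Every Au-NP array was more than 1 log2 unit below every control array, and the spread within each group was small (SD of 0.05 and 0.07, n = 3). The log2 difference was -1.19 ± 0.08 (SE), a fold of 2.29 (limma adjusted p = 0.00170). The second emb-9 probe set, 190353_s_at, read 11.74, 11.54 and 11.64 in the controls and 10.46, 10.26 and 10.36 in the Au-NP arrays. It thus gave the same separation of the groups, with a difference of -1.28 ± 0.09 and a fold of 2.42 (limma adjusted p = 0.00170). For let-2, probe set 192923_s_at read 11.24, 10.99 and 11.12 in the controls and 9.79, 9.76 and 9.67 in the Au-NP arrays. Its difference was -1.38 ± 0.09, a fold of 2.60 (limma adjusted p = 0.00170).

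Perlecan is a heparan sulfate proteoglycan, and unc-52 has 3 probe sets of its own. Probe set 172932_x_at read 9.83, 9.57 and 9.68 in the controls and 8.35, 8.08 and 8.53 in the Au-NP arrays, which differ by -1.37 ± 0.13 (SE, log2; limma adjusted p = 0.00301). Probe set 174785_at read 8.88, 8.42 and 8.64 in the controls and 7.02, 6.95 and 6.70 in the Au-NP arrays. This was the largest difference among the 18 probe sets, at -1.75 ± 0.14 and a fold of 3.37 (limma adjusted p = 0.00234). Probe set 193208_s_at read 9.08, 8.88 and 9.07 in the controls and 7.56, 7.55 and 7.56 in the Au-NP arrays, with a difference of -1.45 ± 0.08 (limma adjusted p = 0.00170). The groups did not overlap in any of these 3 probe sets. The gap between probe sets 174785_at and 193208_s_at was wider by 0.30 log2 in the Au-NP arrays, with an exact permutation p of 0.10 (two-sided; 0.30 after Benjamini-Hochberg adjustment over the 9 pairs of probe sets of 1 member gene), the smallest that 3 against 3 arrays allow before adjustment.

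A further probe set, 194141_at, is annotated with unc-52 under a pair of gene identifiers, as is 188401_s_at with cle-1, and neither was counted among the members for that reason. The former read 7.08, 6.75 and 6.98 in the controls and 6.39, 6.33 and 6.28 in the Au-NP arrays, which gave -0.60 on the log2 scale with an SE of 0.10 ( limma adjusted p = 0.0131). The latter read 8.64, 8.56 and 8.66 in the controls and 8.36, 8.29 and 8.17 in the Au-NP arrays, a difference of -0.35 ± 0.08 (limma adjusted p = 0.0354). Both were thus lower, and the unc-52 one by less than the 3 probe sets of unc-52 alone. Suffixes _s_at and _x_at mark probes that can match more than 1 transcript. They are carried by 6 of the 18 probe sets. Among these are emb-9 190353_s_at, unc-52 172932_x_at and 193208_s_at, and 192923_s_at, the only counted probe set of let-2. The emb-9 probe set 173790_at and the unc-52 probe set 174785_at, which fell as well, carry none.

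Laminin is a trimer of alpha, beta and gamma chains. In the worm lam-1 encodes the beta chain, lam-2 the gamma chain, and lam-3 and epi-1 the alternative alpha chains. The lam-1 probe set 174843_at read 8.48, 8.40 and 8.20 in the controls and 7.69, 8.50 and 8.27 in the Au-NP arrays. Au-NP replicate 1 alone was low, and the groups overlapped, with a difference of -0.21 log2 (95% interval -0.67 to 0.26, limma adjusted p = 0.600). The other lam-1 probe set, 189824_at, had a mean of 4.61 in the controls and 4.66 in the Au-NP arrays, and its level lay at the 12.5th percentile of all probe sets. For lam-2, probe set 174175_at read 7.95, 7.62 and 7.40 in the controls and 7.39, 7.54 and 7.52 in the Au-NP arrays. Its difference was -0.17 (95% interval -0.50 to 0.15), and that of 187258_at was -0.07 (95% interval -0.32 to 0.17).

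The laminin alpha chain gene lam-3 had the values closest to 0. Its probe set 182257_at read 6.68, 6.44 and 7.15 in the controls and 6.68, 6.70 and 6.89 in the Au-NP arrays, with a 95% interval of the difference from -0.41 to 0.41 log2. Its other probe set, 188440_at, had a difference of 0.11 (95% interval -0.18 to 0.40). The dim lam-1 189824_at had a signal that left little room for a fall. The other probe sets of lam-1, lam-2 and lam-3 had intervals with a lowest bound of -0.67. A signal fall of the size seen for type IV collagen lay outside them. However, the lam-3 probe sets (percentiles 45.8 and 29.6) and lam-2 187258_at (44.8) were dimmer than type IV collagen (90.7 to 94.6). RMA compresses differences of dim probe sets, so a fall in transcript may be understated there. The alpha chain gene epi-1 differed from these. It read 8.48, 8.24 and 8.78 in the controls, 7.76 and 7.54 in Au-NP replicates 1 and 2, and 8.51 in Au-NP replicate 3. The difference was -0.56 ± 0.25 (SE; limma adjusted p = 0.211), with a 95% interval of -1.16 to 0.03, which ends just short of the emb-9 differences. Without Au-NP replicate 3 epi-1 had -0.85 (limma adjusted p = 0.00749, over its alternatives 0.00749 to 0.504).

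**Figure D2:**
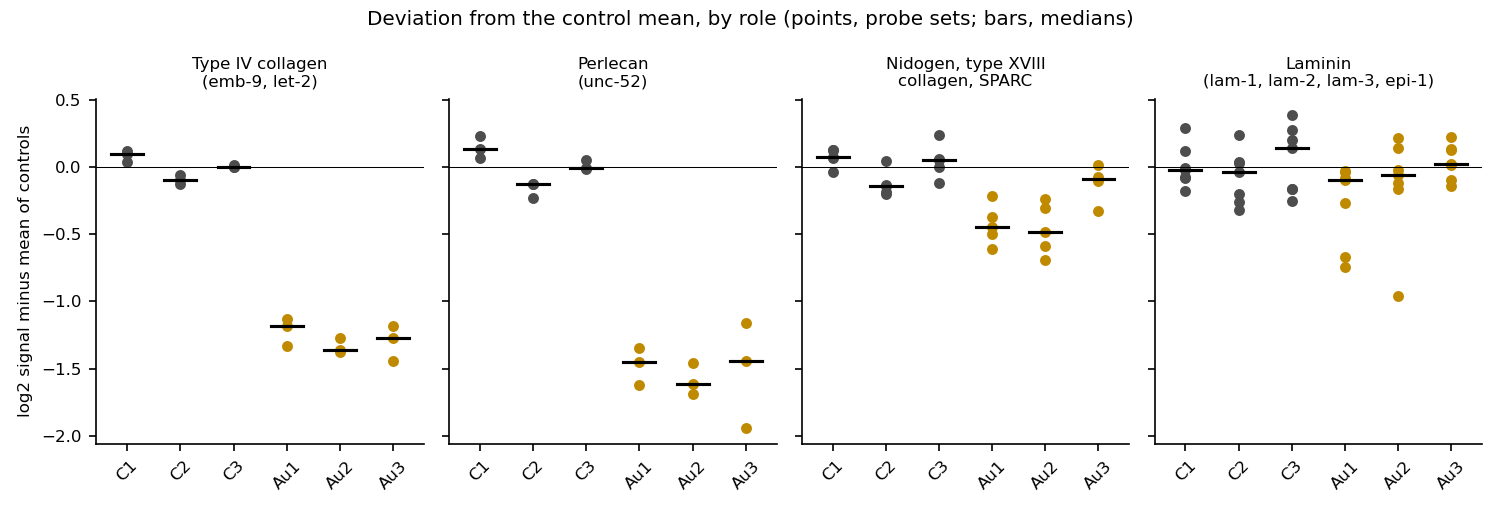
Difference of each probe set on each array from the mean of the 3 controls, in log2 units (y axis), by role of the protein, with points for probe sets, bars for their median, grey for control (C) and gold for Au-NP (Au) arrays. On Au-NP replicate 3 the type IV collagen median was -1.27 and the perlecan median -1.44, while the median of nidogen, type XVIII collagen and SPARC was -0.08 and that of laminin 0.03.

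Nidogen links laminin to type IV collagen, type XVIII collagen is found in basement membranes of the nervous system among others, and SPARC binds type IV collagen. The nid-1 probe set 190588_s_at read 8.55, 8.39 and 8.82 in the controls, 8.09 and 7.90 in Au-NP replicates 1 and 2, and 8.50 in Au-NP replicate 3. The ost-1 probe set 191389_s_at read 12.66, 12.35 and 12.58 in the controls, 11.92 and 11.95 in Au-NP replicates 1 and 2, and 12.46 in Au-NP replicate 3. In both genes Au-NP replicate 3 lay within the range of the controls and the other Au-NP arrays lay below it. The differences were -0.43 ± 0.17 (SE; limma adjusted p = 0.172) for nid-1 and -0.42 ± 0.16 (limma adjusted p = 0.143) for ost-1, whose other probe set, 171988_at, had -0.30 ± 0.15. The cle-1 probe set 191302_at read 5.62, 5.40 and 5.60 in the controls and 5.32, 5.23 and 5.21 in the Au-NP arrays, so that its groups did not overlap. Its difference of -0.28 ± 0.09 did not pass the threshold (limma adjusted p = 0.0813), nor did that of 186657_at, at -0.24 ± 0.10. The uncounted and brighter cle-1 probe set 188401_s_at did pass as lower, at -0.35 (limma adjusted p = 0.0354). That cle-1 is not among the genes called lower thus depends on leaving this probe set out.

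The members differed in how low they read on Au-NP replicate 3. Against the mean of the controls, the type IV collagen probe sets lay from -1.45 to -1.18 on this array and the unc-52 probe sets from -1.94 to -1.16. The laminin probe sets lay from -0.14 to 0.23 and those of nid-1, cle-1 and ost-1 from -0.32 to 0.02. The lowest of the latter was cle-1 191302_at, which read below every control on this array as on the other two Au-NP arrays. On Au-NP replicate 2 the ranges were -1.37 to -1.27 for type IV collagen, -1.69 to -1.46 for unc-52, -0.96 to 0.22 for laminin and -0.69 to -0.24 for nid-1, cle-1 and ost-1. Without Au-NP replicate 3, 10 probe sets of 6 genes passed as lower, since epi-1, nid-1 (limma adjusted p = 0.0188) and both probe sets of ost-1 (0.0173 and 0.00886) joined the rest, while 8.66% of all probe sets were then lower and 9.08% higher. The calls of emb-9, let-2 and unc-52 held without each of the 6 arrays in turn.

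**Figure D3:**
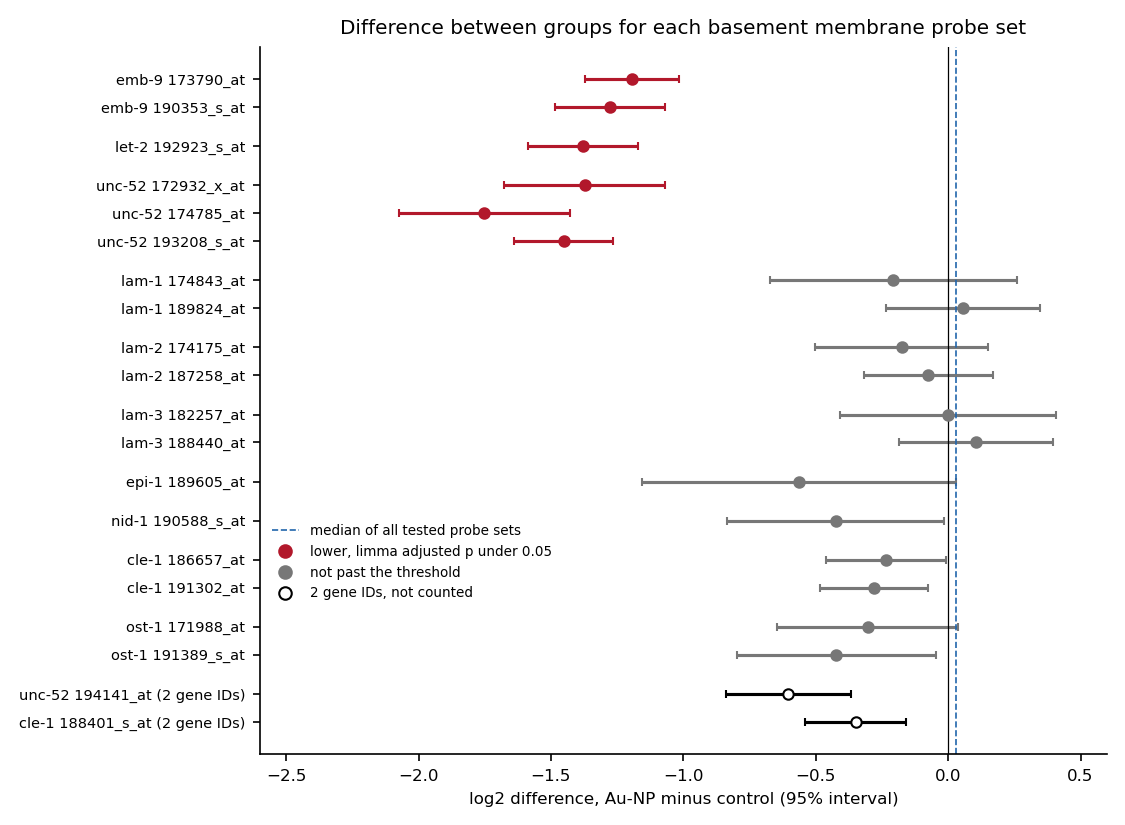
Log2 difference of Au-NP minus control for each probe set, with its 95% interval from limma (x axis), in red where the limma adjusted p was under 0.05, in grey otherwise, and open for the 2 probe sets annotated with a pair of gene identifiers, which were not counted. The 6 probe sets of emb-9, let-2 and unc-52 lie between -1.75 and -1.19, and the dashed line is the median of all tested probe sets at 0.03.

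Partner genes were then set against each other on each array, as the log2 difference between them, which asks whether they changed by unequal amounts and says nothing of which is more abundant. There were 5 such comparisons, and with 3 against 3 arrays an exact permutation test cannot go below p = 0.10. The gap between unc-52 and type IV collagen was wider by 0.22 log2 in the Au-NP arrays, which did not overlap with the controls (exact two-sided permutation p = 0.10, 0.25 after Benjamini-Hochberg adjustment over the 5). After removal of the trend of signal with gene span this shift was -0.11. With only the highest probe set of each gene it was -0.085 and the groups overlapped (exact permutation p = 0.70). The uncounted unc-52 probe set 194141_at, which differed by only -0.60, was not part of the unc-52 mean. Whether perlecan fell by more than type IV collagen thus depended on the probe sets used. The mean of nid-1, cle-1 and ost-1 moved by 0.96 relative to type IV collagen, again without overlap (exact permutation p = 0.10, adjusted 0.25). The emb-9 to let-2 difference moved by 0.14 and the lam-3 to epi-1 difference by 0.62 (each with an exact permutation p of 0.20, adjusted 0.25). For lam-1 against lam-2 the shift was 0.05 (exact permutation p = 0.70). The difference of type IV collagen from the mean of the 4 laminin genes, chosen after the values were seen and therefore not tested, was 4.43, 4.33 and 4.26 in the controls and 3.43, 3.24 and 2.97 in the Au-NP arrays. That of unc-52 from laminin was 2.17, 1.97 and 1.95 in the controls and 0.89, 0.68 and 0.48 in the Au-NP arrays.

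The members are long genes, with spans of 3477 to 37136 bp from start to end with introns, and calls on these arrays moved with span. Of the members, 9 of 10 genes lay among the longest 20% of probe sets by span (5440 bp or more), where 15% of probe sets were lower and 2.27% higher. After removal of the trend with span from every array, 1103 probe sets (5.33%) were lower and 767 (3.71%) higher of the 20701 with a known span, against 1281 and 1408 of 22548 without this step. The member counts stayed at 6 probe sets and 3 genes. The differences were then -1.15 and -1.23 for emb-9, -1.32 for let-2 and -1.21, -1.59 and -1.29 for unc-52 (limma adjusted p from 0.00178 to 0.00332). The cle-1 values shrank to -0.17 for 191302_at and -0.13 for 186657_at.

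**Figure D4:**
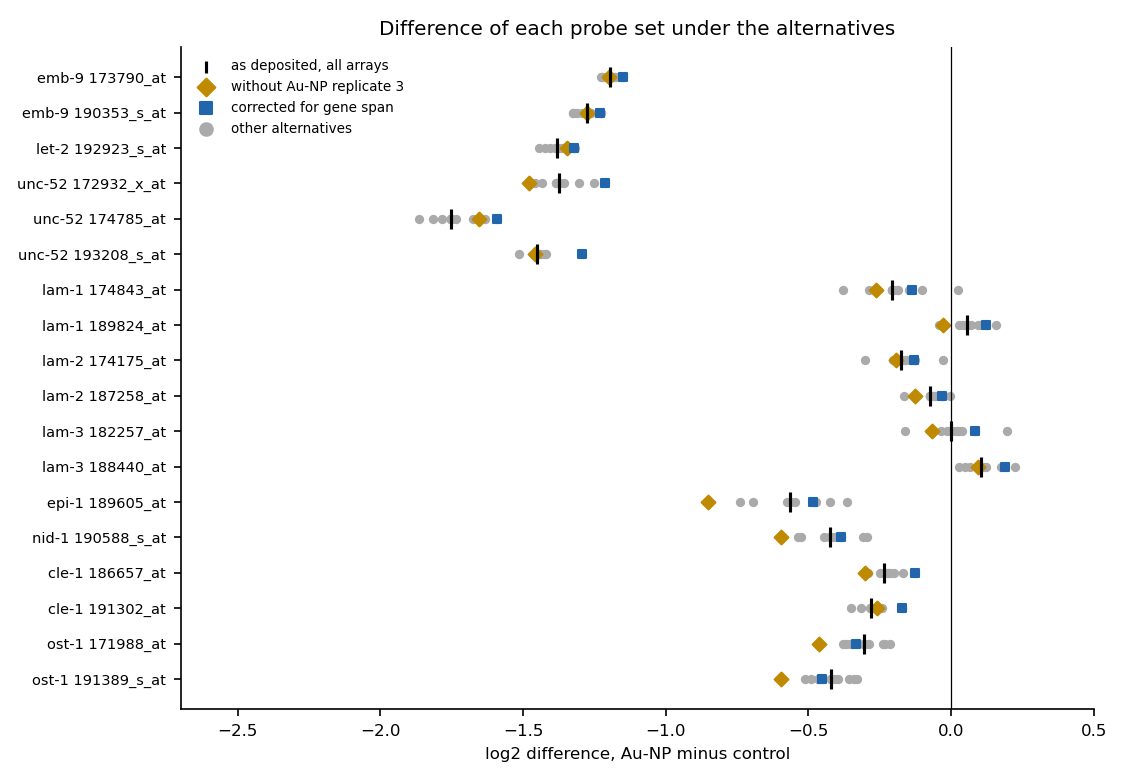
Log2 difference of Au-NP minus control (x axis) of each probe set with the values as deposited and all arrays (black tick), without Au-NP replicate 3 (gold diamond), corrected for gene span (blue square) and under the other alternatives (grey). The probe sets of emb-9, let-2 and unc-52 lie between -1.87 and -1.15 under every setting shown, and epi-1, nid-1 and ost-1 lie furthest to the left without Au-NP replicate 3.

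Markers of some tissues differed along with the members. Of all genes, 4.94% were lower and 7.49% higher by at least 1 probe set, to be read beside the counts that follow. Of 8 body-wall muscle marker genes 5 were lower and 0 higher, and the sum of their log2 signals was 86.8 to 87.6 in the controls and 83.5 to 84.3 in the Au-NP arrays. Of 6 pharynx markers 4 were lower and 0 higher (sums 57.7 to 58.9 and 53.2 to 54.8), and of 7 germ-line markers 4 were lower and 0 higher (sums 67.2 to 68.9 and 60.5 to 64.6). Of 5 somatic gonad markers 0 passed in either direction (sums 37.8 to 38.2 and 37.7 to 38.3). Hypodermis and neuron markers each had 1 of 7 lower and 1 higher, intestine markers 1 of 7 lower, oocyte markers 1 of 6 lower and sperm markers 0 of 6 in either direction. RMA gives every probe set a value, so a value does not show that a marker was detected, and detection calls were not used here. Some markers were dim, such as the sperm gene spe-38 at the 11th percentile of all probe sets and the neuron gene unc-31 at the 25th. The mean of the 8 muscle markers fell by 0.42 log2. Relative to that mean, type IV collagen fell by 0.88 and unc-52 by 1.10, with Au-NP arrays from -0.36 to -0.34 and controls from 0.47 to 0.65 for type IV collagen, and from -2.91 to -2.83 and -1.89 to -1.62 for unc-52. The size of this excess depends on the markers taken. The muscle probe sets ranged from -1.06 (1 of the unc-89 probe sets) to 0.23 (unc-27), with -0.97 for the myosin gene unc-54. The mean of the 6 pharynx markers fell by 0.69, and their probe sets ranged from -1.73 for the pharyngeal myosin gene myo-2 to 0.23 for tnc-2. These marker genes were named after their values were seen. The part that muscle or pharynx plays in the members' values was not tested.

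Other genes of the matrix were read from lists chosen for their roles, with earlier results of these data known. Of all genes, 4.94% were lower and 7.49% higher by at least 1 probe set. Among 11 further matrix proteins 1 was lower and 0 higher, with a list median of 0.03 beside 0.04 over all genes. The gene that fell was mig-6, which encodes papilin, a basement membrane protein. Its probe set 173049_at read 11.45, 11.34 and 11.28 in the controls and 10.43, 10.48 and 10.41 in the Au-NP arrays. That is a difference of -0.91 ± 0.08 (SE; limma adjusted p = 0.00259), and its other 2 probe sets had -1.07 and -1.10 (limma adjusted p = 0.00450 and 0.0102). The last of these, with Au-NP replicate 2 left out, had a limma adjusted p of 0.0536 (0.00393 to 0.0536 over its alternatives), while 173049_at and 190063_at passed without each array.

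Receptors for the matrix had 2 of 12 genes lower and 0 higher (list median -0.02), beside 4.94% and 7.49% of all genes. The dystroglycan gene dgn-1 had a probe set (187933_s_at) that read 8.92, 8.90 and 9.21 in the controls and 8.53, 8.30 and 8.47 in the Au-NP arrays, a difference of -0.57 ± 0.11 (SE; limma adjusted p = 0.0203). Its other probe set, 174786_at, had -0.65 and did not pass (limma adjusted p = 0.0993). The receptor phosphatase gene ptp-3 differed by -0.36 ± 0.08 (limma adjusted p = 0.0322), and after the span correction by -0.20 (limma adjusted p = 0.199, over its alternatives 0.0125 to 0.199). The integrin genes pat-2, pat-3 and ina-1 did not pass, and for pat-3, the beta subunit, the probe sets had 0.08 and -0.03. The receptor calls did not hold without each array. Without any 1 control array, or without Au-NP replicate 2, 0 receptor genes passed, and without Au-NP replicate 1 only dgn-1 did, so that ptp-3 passed without Au-NP replicate 3 alone.

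Genes for collagen modification and matrix remodelling had 2 of 17 lower and 2 higher (list median -0.06), beside 4.94% and 7.49% of all genes. The gene pdi-2 encodes a protein disulfide isomerase that is also the beta subunit of collagen prolyl 4-hydroxylase. Its probe set 193124_s_at read 12.14, 11.90 and 12.19 in the controls and 11.25, 10.91 and 11.27 in the Au-NP arrays, a difference of -0.94 ± 0.13 (SE; limma adjusted p = 0.00784). The matrix metalloprotease gene zmp-4 was higher, with 10.69, 10.57 and 10.55 in the controls and 11.36, 11.28 and 11.23 in the Au-NP arrays, a difference of 0.69 ± 0.08 (limma adjusted p = 0.00551). The calls of pdi-2 (193124_s_at) and zmp-4 held without each array. The ADAMTS protease gene adt-2 (174723_at) fell by 0.40 ± 0.10 and the TIMP-like gene cri-2 rose by 0.32 ± 0.07 (limma adjusted p = 0.0369 and 0.0328). Both calls were lost without any 1 array other than Au-NP replicate 3 (limma adjusted p from 0.0644 to 0.125 and from 0.0771 to 0.122). The other adt-2 probe set, 189243_at, had -0.27 with overlapping groups (limma adjusted p = 0.219). Heparan sulfate is the sugar chain carried by perlecan. Of 13 genes for its synthesis 2 were higher and 0 lower, beside 7.49% and 4.94% of all genes, with a list median of 0.20. The 2 were the epimerase gene hse-5 at 0.32 ± 0.08 and the nucleotide-sugar transporter gene sqv-7 (188115_s_at) at 0.32 ± 0.08 (limma adjusted p = 0.0425 and 0.0469). The other sqv-7 probe set, 173805_at, had 0.31 with overlapping groups and did not pass (limma adjusted p = 0.261). The calls of hse-5 and of sqv-7 188115_s_at were lost when any 1 of the 6 arrays was left out (limma adjusted p from 0.0612 to 0.154 and from 0.0546 to 0.165).

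**Figure D5:**
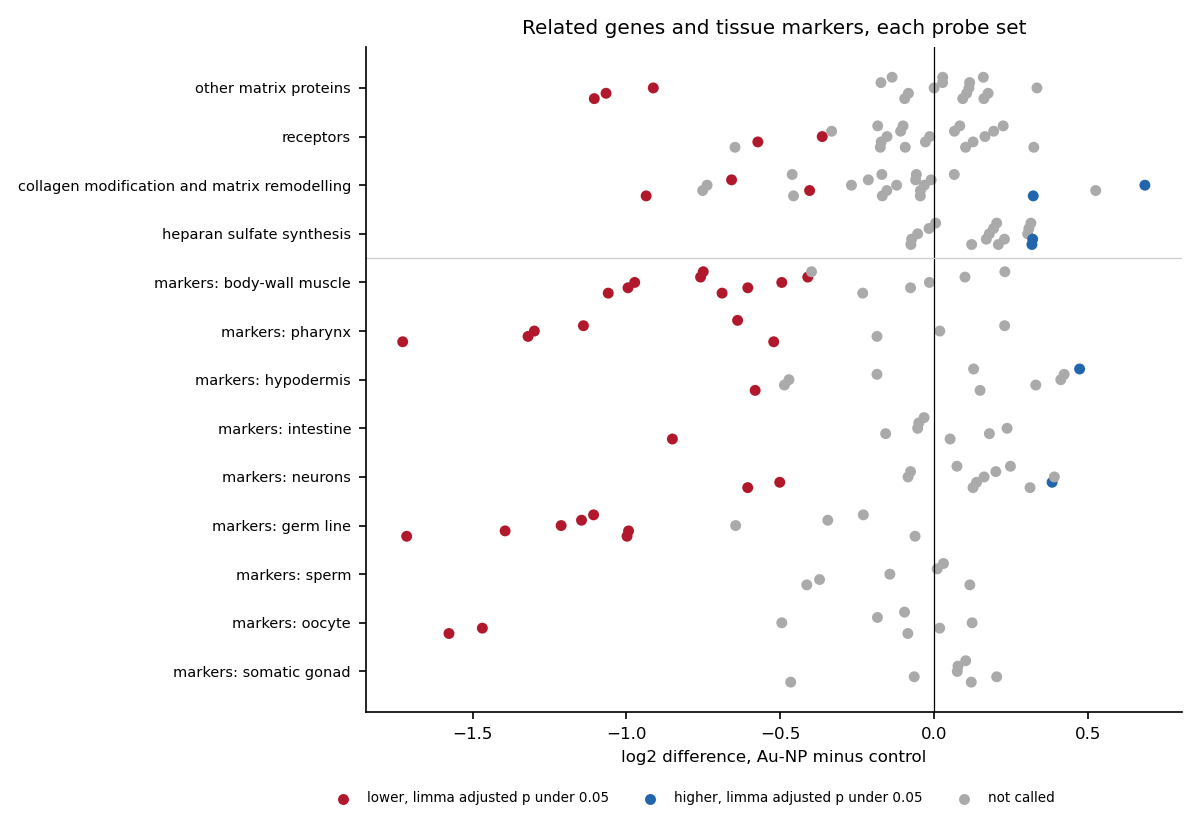
Log2 difference of Au-NP minus control (x axis) for every probe set of the related gene lists (above the line) and of the tissue marker lists (below it), red where lower and blue where higher at a limma adjusted p under 0.05, grey otherwise. The 3 probe sets of mig-6 are the only red points among the other matrix proteins, and the muscle, pharynx and germ-line markers hold most of the red points below the line.

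The profile of unc-52 across the arrays was compared with that of every other gene, each centred on its own mean over the 6 arrays, by the root mean square distance to probe set 172932_x_at. The 5 nearest among 20763 probe sets of other genes were those of lin-42, a Period-family gene of developmental timing, at 0.08 log2 units, npp-8, a nucleoporin gene, at 0.10, emb-9 (190353_s_at) at 0.12, and T23E7.2 and C12D12.1 at 0.13 each. These genes read lower in all 3 Au-NP arrays, by 1.22 to 1.31 for the first 3 named and by 1.18 and 1.39 for the other two. The second emb-9 probe set ranked 13th and let-2 16th. Of the remaining members epi-1 came nearest, at rank 976, and lam-3 188440_at furthest, at rank 14649. The other unc-52 probe sets lay further from 172932_x_at than the 5 nearest, at 0.14 (193208_s_at) and 0.29 (174785_at). The ranking is thus that of 1 probe set and may differ for the others of unc-52. This is a description over 6 arrays, and the distance includes the difference between the groups.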

How the data were processed

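The authors deposited log2 signals, 1 for each probe set on each array. RMA and Partek 6.4 are named per the submitters' processing notes, the latter with no role. In RMA, background correction and quantile normalization across arrays precede a summary over the probes of each set, and differences of dim probe sets are compressed. The table names no scale itself. Its values lay between 3.44 and 15.2, as RMA gives in log2, and were used without further transformation. The genome build was not given in the sources used here, so no coordinates are printed. Of 22625 probe sets, 77 Affymetrix controls were left out. The platform annotation gave 20766 of the 22548 others a single symbol, 887 several and 895 none. Of the single symbols, 20701 matched the reference gene table (assembly WBcel235) by gene identifier, which changed 0 names and gave the spans.

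The group difference came from limma 3.58.1 (R 4.3.3; functions lmFit and eBayes, group alone, two-sided, Benjamini-Hochberg adjustment over 22548 probe sets, threshold 0.05), with 4 residual and 3.39 prior degrees of freedom. A gene counted as lower or higher when at least 1 of its probe sets passed. List medians used the probe set with the highest mean. Between 4 and 15 values were identical in any pair of arrays, so no array was a copy of another. Each array counted as a sample, although this does not show that the RNA came from separate cultures. Deviations from the group means had correlations of -0.34, 0.43 and 0.22 between same-numbered arrays. With 3 arrays per group these cannot settle whether numbers mark pairs, and the main test used no pairing. In 5 simulated runs over 22548 probe sets of this comparison with 200 changed, 35.5%, 83.9% and 96.4% of changes of 0.5, 1 and 2 log2 units were recovered, with 8.8 false calls per run. The runs drew independent normal noise for each array, with spreads shuffled over the probe sets. They held no deviating array such as Au-NP replicate 3, so these rates need not apply to the real arrays.

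Members, lists and alternatives were chosen with earlier results of these data known. Named were all members, up to 4 passing genes per related list with the smallest p, and the 5 profiles nearest to unc-52 172932_x_at. pat-2, pat-3 and ina-1 were named after their values were seen. Alternatives were a replicate block, leaving out each array, another quantile normalization, median centring, probe sets above the median level, array weights, a trended robust prior, a correction for gene span and a threshold of 0.01.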

Additional observations from a re-analysis of the deposited data

How the results depend on the processing

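The 6 calls of emb-9, let-2 and unc-52 were made under all 14 alternatives, with differences from -1.87 to -1.15 and limma adjusted p from 0.000224 to 0.0231, and 0 member probe sets were higher under any. With 1 array left out, 6 to 10 member probe sets and 3 to 6 member genes were lower. The highest counts came without Au-NP replicate 3, where 8.66% of all probe sets were lower, beside 5.68% with all arrays. A replicate block gave 5 genes (epi-1 and nid-1 added, limma adjusted p = 0.0449 and 0.0381, over their alternatives 0.00749 to 0.504 and 0.0188 to 0.431). Of 3 controls, 1 correlated best with its own number, which with 3 arrays per group cannot settle whether the numbers mark pairs. Array weights also gave 5 genes (nid-1 and ost-1 added). The share of all genes called was not taken under the block or the weights. The added genes can therefore not be read as particular to the members. Small laminin values turned sign. For lam-1, 174843_at had 0.025 without Au-NP replicate 1 (from -0.38 with 1 array left out), and 189824_at had -0.044 without control replicate 2 and -0.03 without Au-NP replicate 3. For lam-3, 182257_at had -0.04, -0.16 and -0.07 without control replicates 1 and 2 and Au-NP replicate 3, and -0.013 with array weights. The lam-1 to lam-2 shift was -0.025 without Au-NP replicate 2 (range -0.025 to 0.16 with 1 array left out) and -0.032 with the highest probe set per gene.

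Related counts moved more. In the main test 4.94% of all genes were lower and 7.49% higher. The share of all genes was not taken under each alternative. Lower receptor genes numbered 0 to 3 with 1 array left out, 1 after the span correction and 0 at a threshold of 0.01. For collagen modification and remodelling, 1 to 4 were lower and 1 to 3 higher with 1 array left out, and 1 and 1 both after the span correction and at 0.01. For heparan sulfate synthesis, 0 to 1 were higher with 1 array left out, 0 with the replicate block, the trended robust prior, the span correction and at 0.01, and 1 after another quantile normalization and after median centring. The other partner shifts kept their sign with 1 array left out, at 0.11 to 0.20 (emb-9 to let-2), 0.40 to 0.87 (lam-3 to epi-1), -0.25 to -0.19 (unc-52 to type IV collagen) and 0.82 to 1.04 (nid-1, cle-1 and ost-1 to type IV collagen). Where a call changed, the cause was not tested. The number of arrays and low signals, as for lam-1 189824_at, limit what could be detected.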

Other observations

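Of the alpha subunits of collagen prolyl 4-hydroxylase, the enzyme that hydroxylates collagen prolines, dpy-18 and phy-2 read near or above the controls on Au-NP replicate 3. All subunits here were named after their values were seen. The dpy-18 probe set 194030_s_at read 10.69, 10.35 and 10.73 in the controls, 9.54 and 9.64 in Au-NP replicates 1 and 2 and 10.37 in Au-NP replicate 3, a log2 difference of -0.74 ± 0.22 (SE; limma adjusted p = 0.0732). The phy-2 probe set 193464_s_at read 10.47, 10.13 and 10.67 in the controls and 9.13, 9.92 and 10.85 in Au-NP replicates 1 to 3 (limma adjusted p = 0.543), so that Au-NP replicate 3 was above every control. The phy-3 probe sets were dim, at percentiles 33.4 (177884_at) and 13.1 (177878_at) of all probe sets, and differed by -0.17 and -0.03. On Au-NP replicate 3 they read 5.67 and 4.62, only slightly below the lowest controls at 5.70 and 4.66. On Au-NP replicate 1, 177878_at read 4.73, above every control. By contrast the pdi-2 subunit was below every control on all 3 Au-NP arrays. The cause was not tested.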
